A study of Mus musculus with 2 samples.

Results

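D cyclins (Ccnd1, Ccnd2, Ccnd3), their kinase partners (Cdk4, Cdk6), 2 kinase inhibitors (Cdkn1a, Cdkn1b) and the retinoblastoma gene Rb1 were followed as transcripts in fetal mouse lung epithelium. The 8 genes were taken by symbol from the 31053 genes listed for the control library, and all 8 were detected. The series asks how 4 redundant LEF/TCF transcription factors, the DNA-binding effectors of Wnt signalling, act in lung epithelial progenitors. Lung cells sorted as epithelial at embryonic day 15 gave 1 library with the genotype control and 1 with LEF/TCF knockouts. The labels give neither the driver of the deletion nor the number of embryos. All values here come from the control library, and the expression of the knockout library was not analysed here.

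Progression through G1 depends on D cyclins, which bind and activate CDK4 and CDK6. The active kinases phosphorylate RB1, which otherwise holds back the E2F factors that switch on S-phase genes. The CIP/KIP inhibitors p21 (Cdkn1a), p27 (Cdkn1b) and p57 (Cdkn1c) restrain cyclin-bound kinases, and p21 is a direct target of p53. In the branching lung, dividing Sox9-positive progenitors sit at the distal tips and Sox2-positive cells line the airway stalks behind them.

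The library held 3568 barcodes and 53789893 unique molecular identifiers (UMIs, one per captured RNA molecule), from 504 to 112424 per barcode. It shared 29 barcodes with the knockout library. After filtering, 3457 cells with a median of 12826 UMIs remained, of which 3414 were epithelial and 43 mesenchymal-like. Clusters built without the 8 genes or any listed cell-cycle gene gave 1216 distal progenitor-like cells, 751 airway-like cells and 632 alveolar type 2-like cells. Of the 9 alveolar type 2 markers the last class raised Sftpb, Sftpa1, Lamp3 and Napsa, with Lyz2 at 0. It also raised the distal markers Etv4 and Bmp4, so its name rests on part of the list. A further 815 cells, led by Cym, Smoc2 and Ager, raised only 2 alveolar type 1 markers (Ager and Clic5) with 1 airway marker (Krt15) and are called the Ager-led cluster. Sox9 stood at 171 CPM (UMIs of a gene per 1000000 UMIs of the class) in distal cells and 38.3 CPM in airway cells, and Sox2 at 5.45 and 143 CPM. Sox9 was 172 CPM in alveolar type 2-like and 124 CPM in Ager-led cells. The 8 distal markers summed to 3285 CPM in distal, 4247 CPM in alveolar type 2-like, 2728 CPM in Ager-led and 588 CPM in airway cells. They therefore do not set distal cells apart from alveolar type 2-like cells. Of the distal cells, 337 formed a cluster led by Xist. Airway-like cells also raised markers of other types, among them 2 of 4 immune (Tyrobp, Fcer1g) and 1 each of the alveolar type 1 (Spock2), mesenchymal (Dcn), endothelial (Pecam1) and blood (Pf4) markers. The blood list summed to 99.7 CPM in airway cells, where 1 cell held 867 of its 883 UMIs, and the immune list to 5.76 CPM, where 1 cell held 32 of 51 UMIs and Ptprc was at 0. Cells that combined at least 4 Xist UMIs with a Y-linked UMI, a mark of droplets with cells of both sexes, were 2.88% of distal, 5.86% of airway, 2.85% of alveolar type 2-like and 18.7% of Ager-led cells. A single library gives no spread between replicates and allows no test. Every interval in brackets is at the 95% level, for counting error only.

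Promoter sequences of 300 bases (250 before and 50 after the start) were found in RefSeq (GRCm38.p6) for 5 of the 8 genes in 7 entries, namely Ccnd3, Cdk4, Cdk6, Cdkn1a and Cdkn1b. Ccnd1, Ccnd2 and Rb1 had no entry. The Cdk4 promoter is shown because Cdk4 was the most abundant of the 8 transcripts. It lies at chr10:127063285-127063584 on the plus strand, with each CACGTG E-box, a motif bound by MYC and related factors, in capitals.
Cdk4: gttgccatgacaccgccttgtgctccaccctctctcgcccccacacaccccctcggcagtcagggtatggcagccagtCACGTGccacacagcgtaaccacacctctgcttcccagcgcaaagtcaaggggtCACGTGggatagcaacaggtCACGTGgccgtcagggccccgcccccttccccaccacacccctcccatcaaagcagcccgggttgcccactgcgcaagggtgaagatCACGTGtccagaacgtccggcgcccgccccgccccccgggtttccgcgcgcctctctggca
Its 4 E-boxes begin 172, 118, 98 and 11 bases before the start. Of 32851 mouse promoters of this length, 7.15% hold at least 1 CACGTG and 0.0244% (8 promoters) hold 4 or more. The motif reads the same on both strands. Cdk6 held 1 E-box, and the other members' entries held none. The level of Myc was 3.54 CPM in distal, 6.44 CPM in airway, 3.68 CPM in alveolar type 2-like and 3.38 CPM in Ager-led cells. Levels of the related factors were not read, and Mycl was among the leading genes of the airway-like cluster. Myc alone therefore does not give the level of factors that bind the motif.

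Both Cdkn1a starts are shown because its level differed between the classes. Capitals mark a 20-base match to the full p53 site, searched on both strands, with at most 1 mismatch. The upstream start lies at chr17:29090729-29091028 and the downstream start at chr17:29093519-29093818, both on the plus strand.
Cdkn1a upstream start: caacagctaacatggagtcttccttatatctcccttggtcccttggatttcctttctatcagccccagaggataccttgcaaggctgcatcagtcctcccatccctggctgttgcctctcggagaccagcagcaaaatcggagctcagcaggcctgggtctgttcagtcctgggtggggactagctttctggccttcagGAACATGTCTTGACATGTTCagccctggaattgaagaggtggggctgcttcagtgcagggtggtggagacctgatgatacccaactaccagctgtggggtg
Cdkn1a downstream start: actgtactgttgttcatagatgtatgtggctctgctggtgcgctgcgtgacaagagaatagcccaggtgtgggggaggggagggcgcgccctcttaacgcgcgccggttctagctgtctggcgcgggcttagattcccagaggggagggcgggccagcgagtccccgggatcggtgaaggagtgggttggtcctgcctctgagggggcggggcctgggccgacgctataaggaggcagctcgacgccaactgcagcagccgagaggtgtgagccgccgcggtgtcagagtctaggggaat
The match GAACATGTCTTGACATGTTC begins 51 bases before the upstream start and has 1 mismatch. Such a match was present in 29 of the 32851 promoters (0.0883%). No other entry of the 8 genes held one. The E2F motif TTTCCCGC, searched on both strands, was in none of the 7 entries and in 1.07% of all promoters. These matches describe letters in the windows and show neither binding nor use of a start.

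Over all epithelial cells, the kinase Cdk4 was far more abundant than the other members, followed by the 3 D cyclins, with both inhibitors and Rb1 near the lower end. Cdk4 stood at 979 CPM (970 to 987, 52142 UMIs) and was seen in 99.1% of cells thinned to 5000 UMIs each. Ccnd2 stood at 343 CPM (338 to 348), Ccnd1 at 210 CPM (206 to 214) and Ccnd3 at 148 CPM (145 to 151). Cdk6, the alternative kinase partner, stood at 38.2 CPM (36.5 to 39.9) and made up 3.75% of the UMIs of Cdk4 and Cdk6 together. The inhibitor p27 (Cdkn1b) stood at 8.18 CPM (7.43 to 8.99), p21 (Cdkn1a) at 6.74 CPM (6.06 to 7.47) and Rb1 at 4.39 CPM (3.85 to 4.99). In this order only the neighbours Cdkn1b and Cdkn1a had overlapping intervals. Counts of 3′ tags do not scale with transcript length, but capture can differ between genes.

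Detection at equal depth followed the same order except among the D cyclins. At 5000 UMIs, 61.5% of epithelial cells had a Ccnd1 UMI, 57.0% a Ccnd2 UMI and 50.5% a Ccnd3 UMI, so Ccnd2 had the higher level and Ccnd1 the wider detection. Cdk6 was seen in 16.0% of cells, Cdkn1b in 3.82%, Cdkn1a in 3.04% and Rb1 in 2.13%. Free RNA can add UMIs to cells that do not express a gene. As a measure of it, Sftpc, a distal epithelial gene, was seen in 10.5% of the 38 mesenchymal-like cells of that depth and in 72.0% of epithelial cells, at 24.6 against 1369 CPM. Col1a1, a mesenchymal gene, was seen in 0.150% of epithelial cells at this depth. No cell class here is known to lack the 8 genes, so the low shares of Cdkn1a, Cdkn1b and Rb1 could not be set against a class without them.

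Several of the genes overlap others in GENCODE M21 (GRCm38), and without a stated strand setting their reads could be shared. Ccnd2 (chr6:127125162-127152193, minus strand) overlaps 2 antisense genes, Gm43126 and 9330179D12Rik. Ccnd1 (chr7:144929931-144939925, minus strand) overlaps LTO1 and Cdk4 (chr10:127063534-127067920, plus strand) overlaps Tspan31. Ccnd3 (chr17:47505051-47599691, plus strand) overlaps Bysl and Cdk6 (chr5:3341485-3531008, plus strand) overlaps 2 antisense genes. Cdkn1a (chr17:29090976-29100727, plus strand) overlaps 1 minus-strand gene, Rb1 (chr14:73183673-73325822, minus strand) overlaps 4 genes, and Cdkn1b (chr6:134920401-134925513, plus strand) overlaps none.

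**Figure D1:**
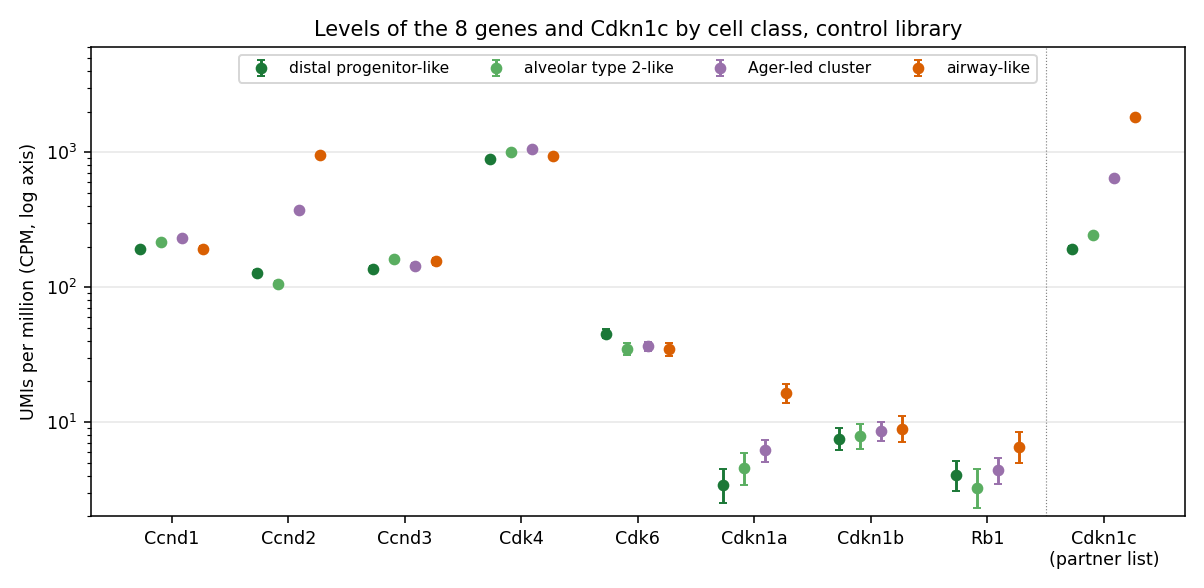
Levels of the 8 genes and of Cdkn1c in 4 cell classes of the control library, in CPM on a log axis, with 95% counting intervals as bars. Ccnd2, Cdkn1a and Cdkn1c are highest in airway-like cells, at 954, 16.4 and 1843 CPM, while Cdk4 lies between 896 and 1056 CPM in the 4 classes.

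Distal and airway cells were set side by side to see which G1 genes differ along the tip to stalk axis. Of the D cyclins, 1 differed widely between the classes. Ccnd2 was 7.48-fold (7.12 to 7.87) higher in airway-like cells, at 954 CPM (934 to 974) against 127 CPM (122 to 133) in distal cells. Ccnd1 stood at 192 CPM in both classes, with a distal over airway ratio of 1.0 (0.942 to 1.06). Ccnd3 stood at 136 CPM in distal and 155 CPM in airway cells, a ratio of 0.879 (0.820 to 0.942).

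Cell by cell, Ccnd2 was a general feature of airway-like cells. At 5000 UMIs, 95.6% of airway cells had at least 1 Ccnd2 UMI, against 37.8% of distal cells, and 73.1% against 5.38% had 3 or more. The median was 4 UMIs per airway cell (quartiles 2 and 6, highest 22) and 0 UMIs per distal cell (quartiles 0 and 1, highest 9). Ccnd1 had a median of 1 UMI in each class. Among airway cells, those with a UMI of the secretory gene Scgb3a2 (195 cells) had 985 CPM of Ccnd2 (923 to 1049) and those without (508 cells) had 880 CPM (844 to 918). Among distal cells, those with a Sox9 UMI had 114 CPM (102 to 127) and those without had 131 CPM (118 to 145), intervals that overlap.

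**Figure D2:**
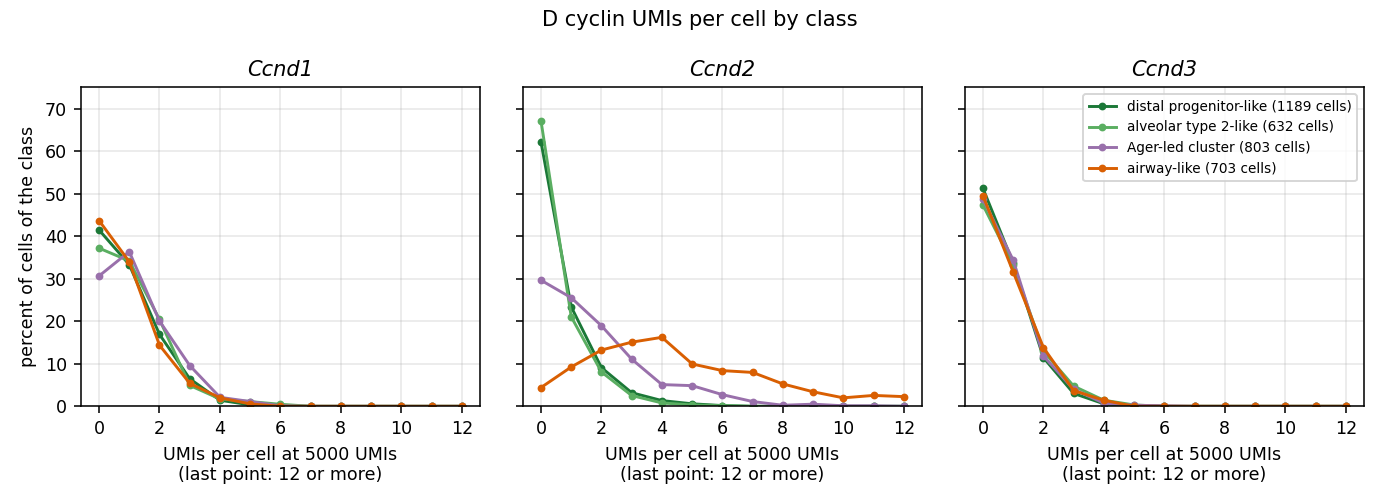
Share of cells (percent of each class, y axis) by number of Ccnd1, Ccnd2 or Ccnd3 UMIs per cell (x axis), with every cell thinned to 5000 UMIs. The curves of the 4 classes lie close together for Ccnd1 and Ccnd3. For Ccnd2 the airway-like curve peaks at 4 UMIs, and the distal, alveolar type 2-like and Ager-led curves peak at 0.

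The kinases differed little between the tip and the stalk. Cdk4 stood at 896 CPM in distal and 933 CPM in airway cells, a ratio of 0.961 (0.934 to 0.987). Cdk6 stood at 45.0 CPM (41.6 to 48.6) in distal and 34.7 CPM (30.9 to 38.8) in airway cells, a ratio of 1.30 (1.13 to 1.49).

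The p53-responsive inhibitor p21 was the other member with a large difference. Cdkn1a stood at 3.40 CPM in distal cells (50 UMIs) and 16.4 CPM in airway cells (145 UMIs), 4.81-fold (3.46 to 6.77) higher in airway cells. It was seen in 6.54% of airway and 1.60% of distal cells at 5000 UMIs. Airway cells with a Scgb3a2 UMI had 22.6 CPM of Cdkn1a (14.1 to 34.2) and those without had 11.8 CPM (7.97 to 16.9). The inhibitor p27 did not separate the classes, with Cdkn1b at 7.49 CPM in distal and 8.92 CPM in airway cells, a ratio of 0.840 (0.623 to 1.14). Rb1 stood at 4.02 CPM in distal and 6.55 CPM in airway cells, a ratio of 0.613 (0.420 to 0.897) that rests on 59 and 58 UMIs.

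Counted by a 1.5-fold limit, 3 of the 8 genes (Ccnd2, Cdkn1a and Rb1) were lower in distal cells, where 23.7% of the 10607 genes measured were, and 0 were higher, where 6.43% were. The median log2 ratio was -0.22 for the 8 genes and -0.21 for all genes. Relative to that median of all genes, Ccnd3 (1.02) and Cdk4 (1.11) lay on the other side of 1, and Rb1 (0.708) no longer passed the limit. Rb1 passed it in 8 of 13 alternative settings, whereas Ccnd2 and Cdkn1a passed it in all 13. Without cells holding a blood or immune marker UMI the ratios of Ccnd2 and Cdkn1a were 0.134 and 0.208. The distal over airway ratio of Ccnd2 was 0.228, in place of 0.134, when the listed genes were kept in the clustering, and it was 0.126 without the cells of mixed sex marks. The ratio of Cdkn1a was 0.312, in place of 0.208, when genes were scaled before clustering. The distal class held 2649 cells with listed genes kept and 2541 with genes scaled, in place of 1216. In both settings no alveolar type 2-like or Ager-led cluster was separated, so these ratios compare a different distal group.

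Other genes moved with this axis and their part in it was not tested. Early response genes, which tissue dissociation can induce, summed to 1925 CPM in distal and 3620 CPM in airway cells, with 13 of 17 lower in distal cells and 1 higher. Cells with a UMI of the dividing-cell genes Mki67 or Top2a were 70.5% of distal and 38.2% of airway cells. The Ccnd2 ratio was 0.141 (0.132 to 0.149) among positive cells alone and 0.130 (0.118 to 0.143) among negative cells alone. The Cdkn1a ratio was 0.213 (0.142 to 0.315) among positive and 0.169 (0.0742 to 0.340) among negative cells, the last on 9 and 69 UMIs. Ccnd2 and Cdkn1a passed the limit in both and Rb1 among positive cells (0.619, with an interval of 0.377 to 1.03 that spans 1), while among negative cells Rb1 had too few UMIs to enter. In these comparisons 22.7% of genes among positive and 27% among negative cells were lower and 5.33% and 6.6% were higher.

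The third CIP/KIP gene, Cdkn1c, was read from a list of 26 G1/S partners and was far more abundant than Cdkn1a and Cdkn1b. It gave 97.7% of the CIP/KIP UMIs of the epithelium and stood at 193 CPM in distal, 245 CPM in alveolar type 2-like, 645 CPM in Ager-led and 1843 CPM in airway cells. Its distal over airway ratio of 0.105 (0.101 to 0.109) was farther from 1 than that of Ccnd2. Of the 25 partners that entered, 2 were higher in distal cells by 1.5-fold, the CDK adaptor Cks1b (1.70) and the atypical repressor E2f8 (1.88), and 4 were lower. Besides Cdkn1c these were cyclin E1 (Ccne1, 0.442), the INK4 inhibitor Cdkn2b (0.558) and the pocket protein Rbl2 (0.660). Among all genes, 6.43% were higher and 23.7% lower in distal cells. The partner list's median log2 ratio was 0.19, against -0.21 for all genes.

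Among 16 p53 targets that entered, 7 were lower in distal cells and 1 was higher, where 23.7% and 6.43% of all genes were. The median log2 ratio was -0.29, against -0.21 for all genes. Summed over the list of 20, p53 targets stood at 2005 CPM in distal and 2019 CPM in airway cells. The 5 farthest from 1 were Trp53inp1 (0.164), Sesn2 (0.230), Bbc3 (0.278), Zmat3 (0.350) and Plk2 (0.352), genes of stress response, cell death and growth arrest. Btg2, also lower at 0.376, belongs to the early response list as well.

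**Figure D3:**
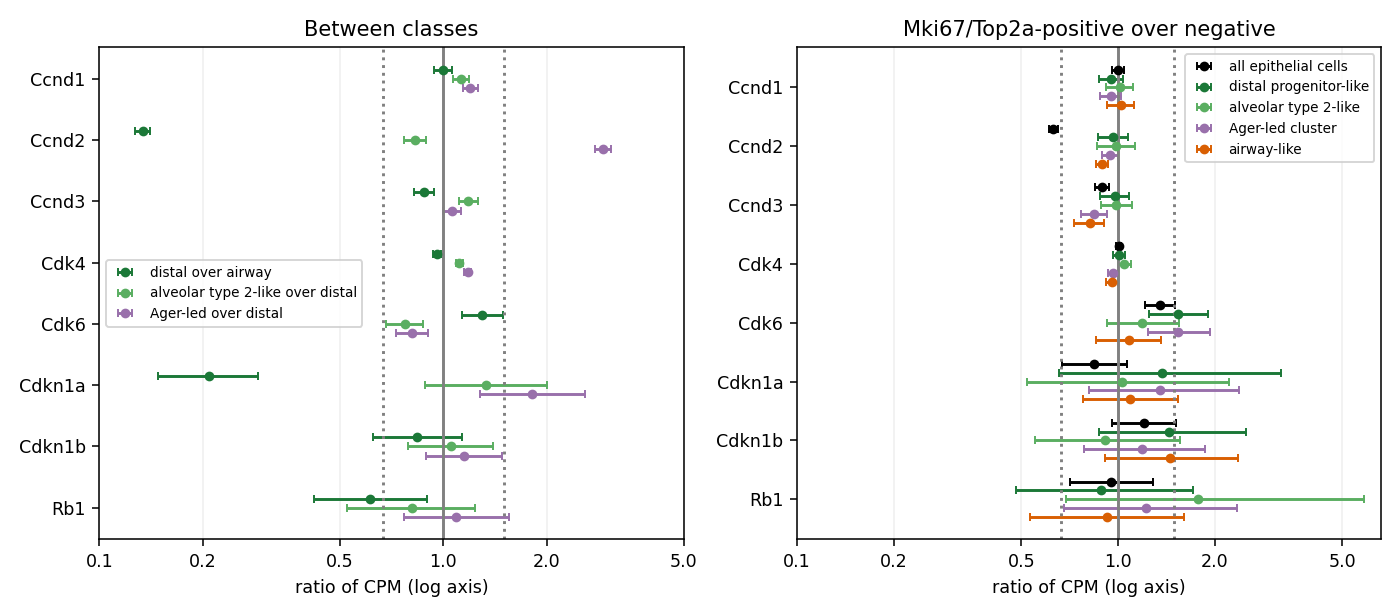
Ratios of CPM for the 8 genes on log axes with 95% counting intervals, between cell classes (left) and between cells with and without a Mki67 or Top2a UMI (right), with dotted lines at 1.5-fold either way. Ccnd2 and Cdkn1a lie far left in distal over airway, at 0.134 and 0.208, and the pooled Ccnd2 ratio on the right, 0.629, lies outside all 4 within-class ratios.

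Because Ccnd2 alone of the D cyclins differed widely, the makeup of D cyclin UMIs changed from class to class. Ccnd2 was 73.3% of D cyclin UMIs in airway-like cells, 49.8% in the Ager-led cluster, 28.0% in distal cells and 21.9% in alveolar type 2-like cells. Ccnd1 was the most frequent D cyclin in distal (42.1%) and alveolar type 2-like cells (44.8%), and 14.7% in airway cells. Ccnd3 ran from 11.9% in airway to 33.4% in alveolar type 2-like cells. The summed level of the 3 was 456 CPM in distal (445 to 467), 483 CPM in alveolar type 2-like (471 to 496), 747 CPM in Ager-led (734 to 759) and 1300.5 CPM (1277 to 1324) in airway cells. Ccnd1 and Ccnd3 together stood at 328 CPM in distal, 347 CPM in airway, 375 CPM in Ager-led and 378 CPM in alveolar type 2-like cells.

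Set against the kinase transcripts, D cyclin UMIs per UMI of Cdk4 and Cdk6 numbered 0.484 (0.470 to 0.498) in distal, 0.468 (0.454 to 0.483) in alveolar type 2-like, 0.683 (0.669 to 0.699) in Ager-led and 1.34 (1.31 to 1.38) in airway cells. CIP/KIP UMIs per D cyclin UMI numbered 0.448 (0.429 to 0.468) in distal, 0.531 (0.508 to 0.556) in alveolar type 2-like, 0.883 (0.862 to 0.906) in Ager-led and 1.44 (1.40 to 1.47) in airway cells. Airway-like cells had the highest transcript sums of the 4 classes for both the activating cyclins and the inhibitors. These are ratios of transcripts, and protein was not measured.

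**Figure D4:**
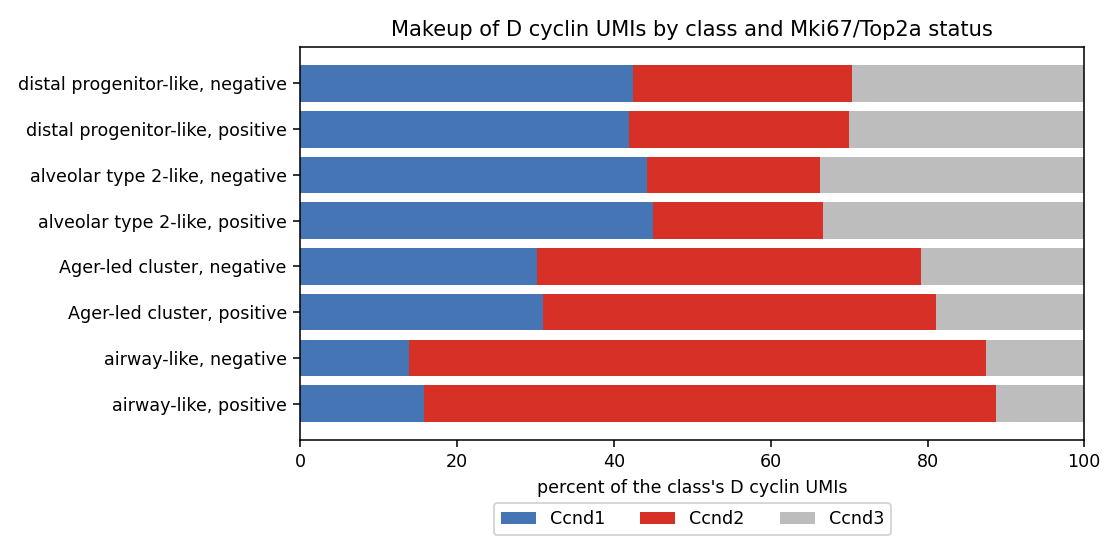
Percent of D cyclin UMIs from Ccnd1, Ccnd2 and Ccnd3 (x axis) in each class, separately for cells with and without a Mki67 or Top2a UMI (rows). Ccnd2 takes most of the bar in both airway-like rows, and within each class the positive and negative rows differ little.

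The alveolar type 2-like cells and the Ager-led cluster were each compared with distal progenitors. In the Ager-led cluster the alveolar type 1 markers summed to 603 CPM, against 631 CPM in alveolar type 2-like and 402 CPM in distal cells. Its alveolar type 2 markers summed to 85.8 CPM, against 214 CPM in alveolar type 2-like and 121 CPM in distal cells. It raised 2 alveolar type 1 markers, under the 3 required, and is not named as alveolar. The type 1 sum does not set it apart from alveolar type 2-like cells. In alveolar type 2-like cells 0 of the 8 genes passed the 1.5-fold limit in either direction, where 15.8% of 10467 genes were higher and 5.84% lower. Ccnd2 was 106 CPM (99.9 to 112), a ratio of 0.829 (0.771 to 0.891), and Cdk6 was 34.7 CPM, a ratio of 0.772 (0.680 to 0.875). Ccnd1 was 217 CPM (ratio 1.13, 1.07 to 1.19), Ccnd3 161 CPM (1.18, 1.11 to 1.26) and Cdk4 998 CPM (1.11, 1.09 to 1.14). Cells of this class with a UMI of the surfactant gene Sftpb had 75.4 CPM of Ccnd2 (58.7 to 95.4) and those without had 111 CPM (98.0 to 126). Ccnd2 and Cdk6 did pass the limit, at 0.607 and 0.619, when clusters were cut at a finer resolution. Cdk6 passed it, at 0.616, in cells of at most 14000 UMIs, where Ccnd2 stood at 1.07.

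In the Ager-led cluster 2 of the 8 genes were higher than in distal cells by 1.5-fold, where 15.1% of 10962 genes were, and 0 were lower, where 2.07% were. Ccnd2 was 372 CPM (363 to 381), 2.92-fold (2.77 to 3.07) the distal level, and 3.52-fold (3.31 to 3.74) that of alveolar type 2-like cells. Against the latter it was the only one of the 8 past the limit, which 9.13% of genes passed upwards and 2.42% downwards. Its level there lay between the distal and the airway levels, and 70.4% of these cells had a Ccnd2 UMI at 5000 UMIs. Ager-led cells with a Sox2 UMI at that depth (46 cells, 41.3% with mixed sex marks) had 613 CPM (516 to 723), and those without (757 cells, 17.6%) had 333 CPM (315 to 352). Without the cells of mixed sex marks Ccnd2 was 339.9 CPM in this cluster, and in cells of at most 14000 UMIs it was 308 CPM. Cells with and without an Ager UMI had 354 CPM (324 to 386) and 347 CPM (324 to 371).

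Cdkn1a in the Ager-led cluster was 6.15 CPM (111 UMIs), 1.81-fold (1.28 to 2.58) the distal level. That call ended in cells of at most 14000 UMIs (1.47) and turned at the finer resolution, where the cluster held 206 cells and the ratio was 0.703. Cdk6 fell short of the limit at 0.811 (0.727 to 0.905) and passed it at the finer resolution (0.318) and in cells of at most 14000 UMIs (0.620). Ccnd1 (1.20, 1.14 to 1.26) and Cdk4 (1.18, 1.15 to 1.20) stood slightly higher than in distal cells. Relative to the median of all genes, whose log2 ratio was 0.13, Ccnd3 stood at 0.969 in place of 1.06 and Rb1 at 0.996 in place of 1.09.

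Among the G1/S partners, the Ager-led cluster had 2 of 25 higher than distal cells, Cdkn1c (3.33) and Ccne1 (1.58), and 0 lower, with a median log2 ratio of 0.10. Of 16 p53 targets, 4 were higher, namely Trp53inp1 (2.87), Sesn2 (2.24), Bbc3 (1.75) and Btg2 (1.53), and 0 were lower. Among all genes 15.1% were higher and 2.07% lower. The median log2 ratio of the p53 targets was 0.14, against 0.13 for all genes. Their list of 20 summed to 1913 CPM in the Ager-led cluster and 2005 CPM in distal cells. Early response genes summed to 2704 CPM in the Ager-led cluster. Alveolar type 2-like cells had 3 of 24 partners higher than distal cells, where 15.8% of all genes were. The 3 were cyclin A2 (Ccna2, 1.71), Ccne1 (1.63) and the cyclin D ligase subunit Fbxo31 (1.57). The INK4 inhibitor Cdkn2c was lower in alveolar type 2-like cells (0.449), where 5.84% of all genes were.

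D cyclins are the link between growth signals and division, so the 8 genes were compared between cells with and without a Mki67 or Top2a UMI. Over all epithelial cells 2150 were positive and 1264 negative, and 1 of the 8 genes passed the 1.5-fold limit. Positive cells were deeper, with a median of 15151.5 against 9915 UMIs (22749 against 11968 in the Ager-led cluster). With every cell thinned to 5000 UMIs the positive share was 54.6% in place of 70.5% in distal, 28.0% in place of 38.2% in airway, 46.8% in place of 72.5% in alveolar type 2-like and 43.1% in place of 67.2% in Ager-led cells. Ccnd2 was 297 CPM in positive and 472 CPM in negative cells, a ratio of 0.629 (0.611 to 0.649), where 3.79% of 11753 genes were lower and 6.17% higher. Ccnd1 was 210 CPM in both (1.0, 0.961 to 1.05), and Cdk4 was 980 and 976 CPM (1.0, 0.985 to 1.02). With status read from the thinned cells the ratio was 0.598 for Ccnd2, 0.938 for Ccnd1 and 0.988 for Cdk4.

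Within classes the Ccnd2 difference was smaller. The ratio was 0.964 (0.866 to 1.07) in distal, 0.891 (0.853 to 0.930) in airway, 0.986 (0.860 to 1.13) in alveolar type 2-like and 0.944 (0.891 to 1.001) in Ager-led cells. None of the 4 passed the limit, where 1.63%, 2.34%, 1.84% and 2.14% of genes were lower. In Ager-led cells of at most 14000 UMIs the ratio was 0.622, which did. With status read from thinned cells, airway Ccnd2 stood at 0.779 and airway Ccnd1 at 0.794, in place of 1.02. Cdkn1c was also within the limit in each class, at 0.639 pooled and at 0.918 in airway, 0.990 in alveolar type 2-like and 0.994 in Ager-led cells. In distal cells Cdkn1c lay on the other side of 1, at 201 CPM in positive and 167 CPM in negative cells (1.21, 1.10 to 1.32).

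Cdk6 stood on the other side. It was 41.0 CPM in positive and 30.3 CPM in negative cells, a ratio of 1.35 (1.21 to 1.51). Within classes it was 1.54 (1.25 to 1.91) in distal cells and 1.54 (1.24 to 1.93) in the Ager-led cluster, past the limit that 9.55% and 10.2% of genes passed upwards. It was 1.19 (0.922 to 1.55) in alveolar type 2-like and 1.08 (0.858 to 1.36) in airway cells, where 9.84% and 8.13% of genes passed. The call in distal cells was kept in 4 of 6 alternative settings and that in the Ager-led cluster in 3 of 6. Ccnd3 lay below 1 in airway (0.816, 0.732 to 0.908) and Ager-led cells (0.841, 0.768 to 0.922). In airway cells it passed the limit in 2 of 6 alternative settings, lowest at 0.662 in cells thinned to 5000 UMIs, and in Ager-led cells in 0 of 6. Cdkn1a and Cdkn1b had intervals that spanned 1 in all 4 classes, as did Rb1 in the 3 classes where it had enough UMIs to enter.

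The G1/S partners showed a wider spread by the same split. Of 25, 8 were higher in positive cells, led by Cdkn2c (3.97), Ccna2 (2.57), E2f8 (2.53) and E2f7 (2.08), and Cdkn1c alone was lower. Among all genes 6.17% were higher and 3.79% lower, the shares to set beside both this list and the p53 targets. The partners' median log2 ratio was 0.35, against 0.04 for all genes and -0.03 for the 8. Of 16 p53 targets, 0 were higher and 3 were lower, Trp53inp1 (0.440), Bbc3 (0.514) and Sesn2 (0.558). Within classes, 0 of 13 targets were lower in distal, 1 of 14 in airway (Bbc3, 0.609), 2 of 13 in alveolar type 2-like and 3 of 16 in Ager-led cells (Trp53inp1, 0.385, Sesn2, 0.459, and Bbc3, 0.595). Of all genes, 1.63%, 2.34%, 1.84% and 2.14% were lower in these classes, in that order.

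More Mki67 and Top2a UMIs went with less Ccnd2 in airway and Ager-led cells. At 5000 UMIs per cell, airway Ccnd2 was 969 CPM (931 to 1008) with 0 such UMIs, 826 CPM (761 to 896) with 1 to 2 and 554 CPM (467 to 652) with 3 to 9, the last from 52 cells. In the Ager-led cluster it was 365 CPM (341 to 391), 350.2 CPM (319 to 383) and 247 CPM (198 to 303), the last from 73 cells. In alveolar type 2-like cells it was 98.8 CPM (84.3 to 115), 105 CPM (87.7 to 124) and 95.5 CPM (59.1 to 146). In distal cells the 3 levels were 130.0 CPM (117 to 144), 112 CPM (98.6 to 126) and 128 CPM (105 to 153), with overlapping intervals. Airway Ccnd1 ran from 191 CPM (174 to 208) through 167 CPM (138 to 199) to 112 CPM (74.7 to 160).

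Ranges of the cell cycle were then read from S-phase and G2/M transcripts, each called high above its 75th percentile over epithelial cells at 5000 UMIs (18 and 39 UMIs). These ranges are cuts of a continuous count, not cell types, and a gene on either list differs between them by construction. Ccne2 may be such a gene of the S-phase list, so its 99.6 CPM in S-high and 7.22 CPM in G2/M-high cells are not read as a result. Ccne1, which partners CDK2 at S-phase entry, was 76.1 CPM in S-high cells and 11.7 CPM in G2/M-high cells. Over all epithelial cells Ccnd1 was 205 CPM (191 to 220) and 197 CPM (183 to 212), and Cdk4 was 1022 CPM (990 to 1056) and 954 CPM (922 to 986). Within airway cells, however, Ccnd1 was 222 CPM (179 to 272, 83 cells) in S-high and 119.6 CPM (90.8 to 155, 97 cells) in G2/M-high cells, with intervals that did not overlap. In the other 3 classes the Ccnd1 intervals of these ranges overlapped, at 173 and 197 CPM in distal, 204 and 219 CPM in alveolar type 2-like and 226 and 218 CPM in Ager-led cells. The 87 cells high in both lists had 156 CPM of Ccnd1 (121 to 198).

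The less abundant members showed more contrast, on few UMIs. Pooled over classes, Cdkn1a was 10.4 CPM (7.36 to 14.3, 38 UMIs) in S-high and 3.61 CPM (1.92 to 6.18, 13 UMIs) in G2/M-high cells. In distal cells it did not differ, at 3.24 CPM (3 UMIs) and 3.58 CPM (5 UMIs). In airway cells it was 33.7 CPM (18.4 to 56.6, 14 UMIs) and 4.12 CPM (0.499 to 14.9, 2 UMIs). In alveolar type 2-like cells it was 9.84 CPM (5.08 to 17.2) and 1.18 CPM (0.0298 to 6.55), with overlapping intervals. Cdkn1b was 5.24 CPM (3.29 to 7.94) where both lists were at or under the median and 13.3 CPM (9.83 to 17.7) in G2/M-high cells. Cdk6 was 29.8 CPM (24.5 to 36.0) in S-high and 42.2 CPM (35.8 to 49.5) in G2/M-high cells. Rb1 was 6.29 CPM (3.99 to 9.44) and 3.06 CPM (1.53 to 5.47), with overlapping intervals. Ccnd2 was 583 CPM (560 to 607) where both lists were low, 270 CPM (253 to 287) in S-high and 217 CPM (202 to 233) in G2/M-high cells. Of those 839 cells low in both lists, 391 were airway-like. Within classes, Ccnd2 in cells low in both lists and in G2/M-high cells was 970 CPM (927 to 1015) and 703 CPM (630 to 782) in airway, and 158 CPM (138 to 181) and 106 CPM (89.7 to 125) in distal cells. It was 424 CPM (379 to 473) and 275 CPM (241 to 312) in the Ager-led cluster, and 133 CPM (81.4 to 206) and 62.4 CPM (46.7 to 81.6) in alveolar type 2-like cells. In each of the 4 classes the value was lower in G2/M-high cells, and the intervals overlapped only in the alveolar type 2-like class, where 30 cells were low in both lists.

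**Figure D5:**
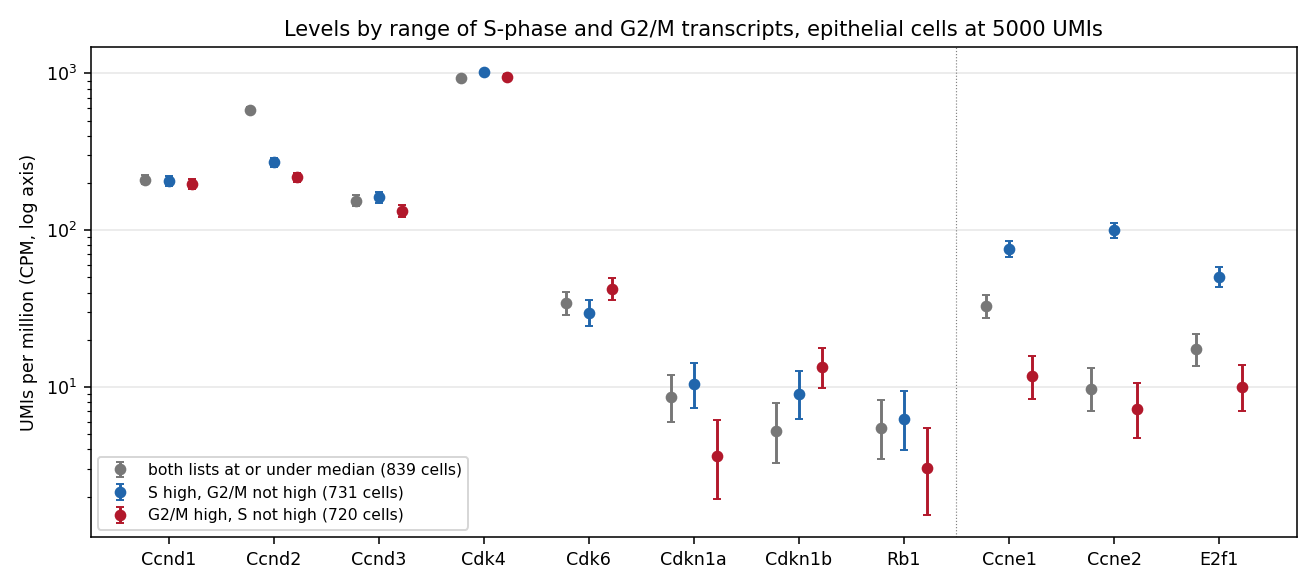
Levels (CPM, log axis) of the 8 genes and of Ccne1, Ccne2 and E2f1 in epithelial cells at 5000 UMIs, by range of S-phase and G2/M transcripts, with 95% counting intervals. Ccne1 and E2f1 separate S-high from G2/M-high cells, whereas pooled Ccnd1 lies near 200 CPM in the 3 ranges drawn. Ccne2 separates them too, but may be part of the S-phase list that set the ranges. Within airway-like cells, which are not drawn apart, Ccnd1 was 222 CPM in S-high and 119.6 CPM in G2/M-high cells.

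Most epithelial cells carried transcripts of more than 1 D cyclin even at this depth. With 3327 cells at 5000 UMIs, 9.98% had none of the 3, 30.3% had 1, 40.6% had 2 and 19.2% had all 3. All 3 were seen in 29.3% of airway, 26.7% of Ager-led, 12.5% of alveolar type 2-like and 11.7% of distal cells. Ccnd1 and Ccnd2 were seen together in 36.5% of cells (34.9% to 38.2%), where the product of the single shares was 35.0%. Over the 28 pairs of the 8 genes, the product lay outside the interval for 1 pair, Ccnd2 with Cdkn1a, at 2.40% (1.91% to 2.98%) against 1.73%. Within airway cells that pair was seen in 6.54% (4.83% to 8.63%) against a product of 6.25%. Many of the 28 pairs could hardly leave their intervals. Cdk4 was seen in nearly all cells, which holds its pairs near the product. Cdkn1a with Cdkn1b, Cdkn1a with Rb1 and Cdkn1b with Rb1 were seen together in 6, 1 and 3 cells.

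Genes with the most similar profile were ranked over 9 groups of cluster and Mki67 or Top2a status, among 7062 genes. The groups come from 1 library and differ in depth, and Aldh1a7 and Sparc, named next, are among the leading genes of clusters, so each Pearson r is a description. Ccnd2 was most like Cldn10 (0.993), Btg2 (0.992), Aldh1a7 (0.992) and Emp1 (0.986). Ccnd1 was most like Dbi (0.928), Mad2l1bp (0.926), Gnai2 (0.915) and Lyplal1 (0.911), and Cdk4 most like 0610009B22Rik (0.934), Rida (0.931), Gpc4 (0.931) and Sparc (0.924). Cdk6 was most like Ctnnd1 (0.976), Tjp1 (0.970), Mrpl55 (0.964) and Arhgap5 (0.953), and Ccnd3 most like Zfp120 (0.902), Sdhaf2 (0.866), Cib1 (0.852) and Yif1a (0.849). Cdkn1a, Cdkn1b and Rb1 had as few as 6, 16 and 5 UMIs in their smallest group, and no profile is read from them. Among the 8 genes, r was 0.90 for Ccnd1 with Cdk4 and -0.09 for Ccnd1 with Ccnd2.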

How the data were processed

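For the control library the authors deposited raw UMI counts per gene and barcode, made with software version 3.0.1 per the file headers. The submitters' processing notes name Cell Ranger, Seurat and mm10, and the annotation and the rule for calling barcodes are not given in the sources used here. Cells with at least 1000 genes and at most 10% mitochondrial UMIs were kept (111 of 3568 barcodes removed). After scaling each cell to 10000 and taking logs, the 2000 most variable genes seen in 10 or more cells, outside the listed genes, gave 20 principal components, 20 neighbours and Leiden clusters (resolution 0.5, seed 0, leidenalg 0.10.2, scanpy 1.11.5, Python 3.11.15). Scaling genes first was tried and replaced after its clusters were seen. A class needed 3 markers at 2 times the other cells, or 3 distal markers at 1.5 times airway cells, by a rule set with the clusters known. A type was also passed over where the 10 genes that led a cluster included fewer of its markers than of another type's. Sox9 (124 against 38.3 CPM) and Sftpc (1496 against 113 CPM) were past 1.5 times airway cells in the Ager-led cluster. Its leading genes held Ager and no distal marker, so its separation from the distal class rests on this last condition. No doublet caller was run, and cells with both sexes' transcripts were left out as an alternative instead.

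Raw counts were summed per class and given as CPM, with exact Poisson, binomial (Clopper-Pearson) or conditional intervals at 95%. Ratios used genes with at least 50 UMIs in both groups together, and the ratio code was tested on simulated data. Named were the 8 genes, list genes past 1.5-fold (at most the 5 farthest from 1) and the 4 genes of most similar profile per member (at least 500 UMIs, log2 of CPM + 1). Members, lists and tests were chosen with earlier results of these data known. Of the gene identifiers, 31011 of 31053 occur in GENCODE M21. The values of 1 marker list are not reported here.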

Additional observations from a re-analysis of the deposited data

How the results depend on the processing

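No paired analysis was possible because each genotype has 1 library and the comparisons lie within the control library. Over 664 recomputed values of 89 results, 540 stayed within the counting interval (or, for counts and shares of genes, within 1.5 times) and 124 did not. Of 512 recomputed ratios, 59 lay on the other side of 1 from the value reported: 1 where that value was past 1.5-fold (Cdkn1a in the Ager-led cluster, below) and 58 where it was within it. The summed D cyclin level, 701 CPM, was 666 CPM in cells of at most 14000 UMIs, 673 CPM without cells of mixed sex marks, 689.7 CPM as a mean over cells and 691 CPM in cells thinned to 5000 UMIs. The number of members past the fold in the alveolar type 2-like and Ager-led classes together was 2. It was 1 after thinning, where fewer UMIs of Cdkn1a entered, and 4 at resolution 0.8. At that resolution the airway share of Ccnd2 was 72.1%, in place of 73.3%, and the Ager-led over distal ratio of Cdkn1a was 0.703. The cause was not tested. Classes moved with the clustering. With listed genes kept, or genes scaled, the alveolar type 2-like and Ager-led clusters were not separated and gave no value. Scaling was an alternative added after seeing the data, as were ratios centred on the median of all genes. So were ratios without cells holding UMIs of other cell types' markers. In the distal and airway comparison, 2 or 3 members passed the fold in all 13 alternatives. Depth limits Cdkn1a, Cdkn1b and Rb1, seen in 101, 127 and 71 of 3327 cells at 5000 UMIs.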

Other observations

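The 43 mesenchymal-like cells, which entered none of the ratios, gave further values of the D cyclins. Ccnd2 stood at 358 CPM (299.7 to 425, 131 UMIs) in them, Ccnd3 at 156 CPM (118 to 202) and Ccnd1 at 68.4 CPM (44.3 to 101). Ccnd1 was lower than in any of the 4 epithelial classes, where it ran from 192 to 230.0 CPM with intervals above 182 CPM. Cdk4 was 824 CPM (733 to 922), Cdk6 62.9 CPM (39.9 to 94.4) and Cdkn1c 405 CPM (342 to 476). Cdkn1a, Cdkn1b and Rb1 had 2, 1 and 1 UMIs, too few to read a level from. These cells are few, come from a sort for epithelium, and the values carry counting intervals only.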
